A study of Sus scrofa with 4 samples.

Results

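A set of 10 basement membrane genes is described here in sorted epidermal cells of the pig, namely the 6 genes of the type IV collagen chains (COL4A1, COL4A2, COL4A3, COL4A4, COL4A5 and COL4A6), COL18A1, the nidogen genes NID1 and NID2, and HSPG2, which encodes perlecan. They were chosen by name from the table of raw counts, and all 10 were among its 29837 named genes. RNA came from juvenile pigs 88R and 95R, and each pig gave 1 LGR5-high and 1 LGR5-negative library. The pigs belong to a line that carries H2B-GFP, a green fluorescent protein joined to a histone, under the LGR5 promoter. The line goes back to fetal fibroblasts edited with CRISPR/Cas9 at exon 1 of LGR5, with the other allele left as it was, from whose colonies animals were cloned by nuclear transfer. Whether these 2 animals were cloned offspring or progeny of such offspring is not given in the sources used here. Epidermis and hair were lifted from the dermis with dispase and dissociated with trypsin, and living cells with high GFP (LGR5-high) or no GFP (LGR5-negative) were sorted. Both populations came from the same transgenic skin, so the allele was shared, and cells of intermediate GFP were not sequenced.

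The basement membrane is a thin sheet of matrix on which the cells of the epidermis and hair follicle rest. Type IV collagen forms its network. Its chains fold into triple helices of fixed makeup, in which COL4A1 joins COL4A2, COL4A3 joins COL4A4 and COL4A5, and COL4A5 joins COL4A6. The genes lie in head-to-head pairs, COL4A1 beside COL4A2, COL4A3 beside COL4A4 and COL4A5 beside COL4A6. Nidogens tie the collagen network to laminin, while perlecan and the COL18A1 product (collagen XVIII, from which endostatin is cut) carry heparan sulfate or related sugar chains.

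The libraries held between 30696803 and 32463362 counts on named genes. LGR5, the gene behind the sort, was read 4551 times in LGR5-high 88R, 6224 in LGR5-high 95R, 36 in LGR5-negative 88R and 109 in LGR5-negative 95R. After scaling, its LGR5-negative level was 0.954% and 1.91% of the LGR5-high level of the same pig. As a check of the labelled tissue, KRT5, a keratin of basal keratinocytes, was at 23651 and 25478 CPM (read counts set on a common depth with TMM factors) in LGR5-high and at 29543 and 26114 CPM in LGR5-negative libraries, and it was not called (log2 fold change -0.18, adjusted p = 0.265). At an adjusted p under 0.05 (edgeR), 22.7% of all tested genes were called higher in LGR5-high and 22.0% lower. Of 7 tested basal keratinocyte markers, 1 was higher (BCAM, 1.04) and 4 were lower (ITGA6 -0.94, DST -0.72, COL17A1 -0.47 and ITGB4 -0.38), with a median of -0.38. Of 9 tested genes of suprabasal keratinocytes, 8 were lower in LGR5-high, with a median log2 fold change of -3.22, and of 10 tested genes of the outer root sheath and bulge (LGR5 itself included) 9 were higher, with a median of 4.04. These are bulk samples, in which fewer cells of a type and less RNA per cell cannot be told apart.

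The question put to the data was which of the 10 genes differed between LGR5-high and LGR5-negative epidermis. COL4A1 and COL4A2 were higher in LGR5-high cells by more than an order of magnitude, HSPG2 was modestly higher, and COL4A4 was higher at a very low count. COL4A5, COL4A6 and COL18A1 were modestly lower, NID1 was lower by a large ratio at a low count, NID2 was not called, and COL4A3 was hardly read at all. Thus 4 of 9 tested genes passed as higher and 4 as lower at an adjusted p under 0.05 (edgeR quasi-likelihood test). Among all 15980 genes tested, 22.7% were called higher and 22.0% lower, so that calls were common in this comparison. Scaling by total counts alone gave 4 higher and 2 lower, and 2 were lower without LGR5-high 88R or without LGR5-high 95R, COL4A5 and COL4A6 being the lower calls lost each time. COL4A4 and NID1 entered the test only through the population in which they were higher, and with at least 10 counts asked of every library the tally was 3 higher and 3 lower. The median log2 fold change was 0.27 over the 9 genes and 0.02 over all genes. The LGR5-high and LGR5-negative values of the 8 called genes did not overlap, and neither did those of 76.6% of all tested genes, so that nothing is read from this separation. With 2 libraries against 2, the smallest 2-sided p that an exact permutation test allows for a single gene is 0.333, so the calls rest on the spread shared across genes in the edgeR fit.

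**Figure D1:**
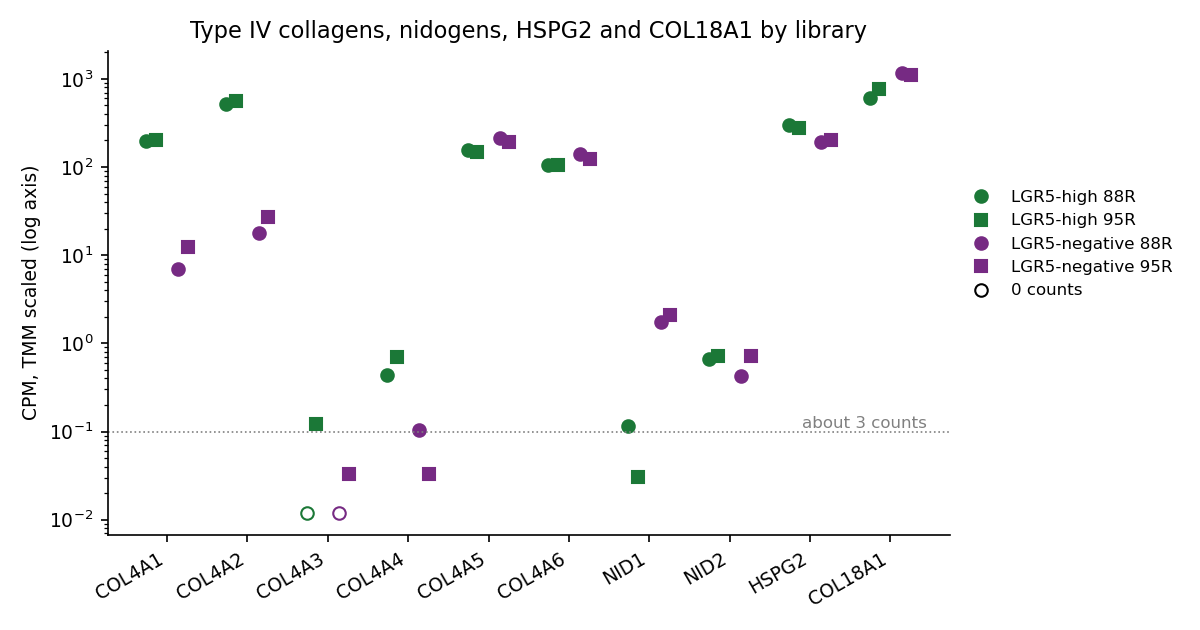
TMM-scaled CPM of the 10 genes on a log axis, 1 point per library (green, LGR5-high; purple, LGR5-negative; circles, pig 88R; squares, pig 95R), with open symbols at the bottom for 0 counts and a dotted line near the level of 3 counts. COL4A1 and COL4A2 stand far apart between the populations, NID1 stands apart in the other direction close to the dotted line, and COL4A5, COL4A6, HSPG2 and COL18A1 differ by small ratios.

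COL4A1 encodes a chain found in the basement membranes of most tissues. LGR5-high held 6753 (88R) and 6687 (95R) counts of it and LGR5-negative held 200 and 373, in the same order of pigs, which is kept in all pairs of values that follow. In CPM these were 196 and 202 against 7.01 and 12.3, or 199 ± 4.23 against 9.68 ± 3.76 (mean ± SD, n = 2 pigs each). The LGR5-high libraries lay close together, whereas the LGR5-negative libraries differed from each other 1.76-fold, with pig 95R the higher. The log2 fold change was 4.36 ± 0.258 (SE), with an edgeR adjusted p of 1.69e-04, and the level in LGR5-high was 28.0 times that in LGR5-negative cells of pig 88R and 16.4 times that of pig 95R.

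COL4A2, the partner of COL4A1 in its triple helix, had 18051 and 18579 counts in LGR5-high and 511 and 820 in LGR5-negative libraries. Its level was 525 and 562 CPM against 17.9 and 27.1 CPM, or 543 ± 26.4 against 22.5 ± 6.50 (mean ± SD, n = 2). Here too the LGR5-negative library of pig 95R was above that of pig 88R, by 1.51-fold. COL4A2 had a log2 fold change of 4.59 ± 0.214 (edgeR, adjusted p = 9.27e-05), with a ratio of 29.3 within pig 88R and of 20.7 within 95R. By log2 fold change it stood at place 258, and COL4A1 at place 317, among the 3632 genes called higher.

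The members of the pair moved nearly together. COL4A2 had 2.67 and 2.78 counts per COL4A1 count in the LGR5-high libraries, and 2.56 and 2.20 in LGR5-negative 88R and 95R. Only the LGR5-negative library of pig 95R had a counting interval (1.94 to 2.49, 95%, exact) that lay below both LGR5-high intervals, which ran from 2.60 to 2.86. By the distance between centred log2 CPM profiles over the 4 libraries, COL4A2 ranked 9 among 15979 genes in likeness to COL4A1, and COL4A1 ranked 12 in likeness to COL4A2. The 5 genes nearest to COL4A1 were NBEA (distance 0.0723), PRELP, KRT6A, CSMD2 and ACAN. Of these, KRT6A encodes a keratin of the hair follicle's outer root sheath, and it had 57791 and 61464 counts in LGR5-high against 1911 and 3354 in LGR5-negative libraries. PRELP and ACAN encode proteoglycans. The 5 nearest to COL4A2 were LRCH2, HS3ST5, COL15A1, LOC100516145 and LGALS1, of which COL15A1 encodes another collagen of the basement membrane zone.

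In the RefSeq annotation (Sscrofa11.1), COL4A1 and COL4A2 overlap, and COL4A2 also overlaps LOC110255861, which had 34 and 39 counts in LGR5-high and 1 and 3 in LGR5-negative libraries. The strand setting of the read counting is not given in the sources used here, so reads in such overlaps cannot be assigned with certainty. The counts on LOC110255861 are small beside those on COL4A2, but they do not show how many reads fall in the overlaps.

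Cells other than keratinocytes that make much COL4A1 and COL4A2 include vascular endothelium, smooth muscle, pericytes and fibroblasts, and their markers were read in the same libraries. The counts of calls below stand beside 22.7% higher and 22.0% lower among all tested genes. Of 11 tested endothelial markers, 2 were higher in LGR5-high (TIE1 and EGFL7) and 6 were lower. CDH5, KDR, ROBO4 and CLDN5, all among the lower, entered the test only through their LGR5-negative counts. The endothelial markers' summed level was 15.9 and 18.5 CPM in LGR5-high against 26.8 and 28.8 CPM in LGR5-negative libraries. Counts in LGR5-high ran from 0 and 0 for ROBO4, 1 and 1 for CDH5 (vascular cadherin) and 5 and 1 for KDR (a receptor for vascular growth factor) to 49 and 32 for VWF, 107 and 185 for PECAM1, 143 and 181 for EGFL7 and 151 and 159 for TIE1. PECAM1 was not called (-0.81, adjusted p = 0.0782). Among 12 tested fibroblast markers 5 were higher and 7 lower. Of the lower, COL6A3, LUM, PDGFRA and MFAP5 likewise entered the test only through their LGR5-negative counts. The summed fibroblast level was 1372 and 1670 CPM in LGR5-high against 756 and 463 CPM in LGR5-negative libraries. The fibroblast genes COL1A2 (17092 and 18545 against 1644 and 725 counts) and COL1A1 were among those higher, while PDGFRA (4 and 3 against 21 and 21 counts) and LUM (5 and 0 against 47 and 31 counts) were among those lower. Of 9 tested smooth muscle and pericyte markers 6 were higher and 1 was lower, with a summed level of 1048 and 964 CPM against 686 and 773 CPM. The largest parts of that sum were TAGLN (389 and 277 against 11.4 and 9.99 CPM), NOTCH3 (369 and 382 against 550 and 646 CPM) and CSPG4 (271 and 287 against 118 and 110 CPM). TAGLN had a log2 fold change of 4.96. ACTA2 (134 and 142 against 22 and 35 counts), MYH11 (178 and 182 against 72 and 95) and CNN1 (166 and 151 against 11 and 10) were also higher. RGS5 of the same list was higher as well (88 and 54 against 21 and 17 counts, log2 fold change 1.69). PDGFRB (38 and 30 against 10 and 21 counts) and LMOD1 (23 and 10 against 39 and 20) were not called. DES, a defining filament of muscle, had 0 and 2 against 1 and 0 counts. Dermal papilla markers summed to 94.3 and 77.4 CPM against 62.7 and 52.6 CPM, with 3 of 6 tested genes higher and none lower, and SOX2 had 3 and 5 against 0 and 0 counts. NRG2 (42.9 and 38.7 against 34.0 and 25.9 CPM) and INHBA (34.9 and 26.4 against 22.0 and 19.8 CPM) were the largest parts of this sum. The part of endothelium, fibroblasts, smooth muscle, pericytes and dermal papilla in the COL4A1 and COL4A2 values was not tested.

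**Figure D2:**
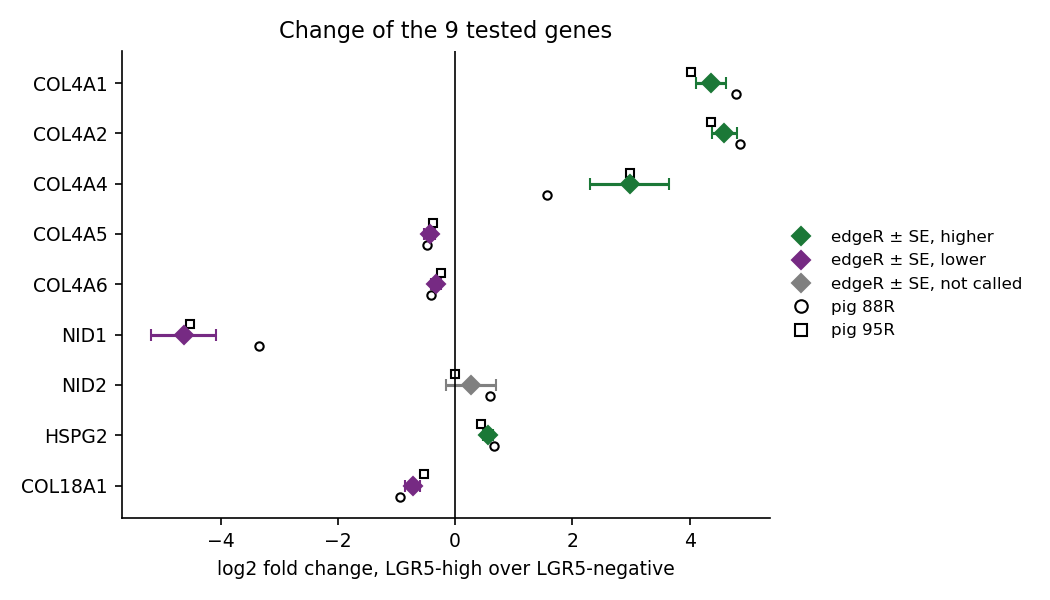
Log2 fold change of LGR5-high over LGR5-negative for the 9 tested genes. Diamonds with bars are the edgeR estimate ± SE, coloured by call, and open circles and squares are the log2 ratios within pigs 88R and 95R (prior count 2); in both pigs COL4A1, COL4A2, COL4A4 and HSPG2 lie right of 0 and COL4A5, COL4A6, NID1 and COL18A1 left of it.

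COL4A5 and COL4A6 form the network that lies beneath epidermal keratinocytes together with that of COL4A1 and COL4A2. COL4A5 had 5302 and 4868 counts in LGR5-high and 6152 and 5773 in LGR5-negative libraries, or 154 and 147 CPM against 216 and 191 CPM. Both LGR5-negative values were above both LGR5-high values, and the means were 151 ± 4.86 and 203 ± 17.6 CPM (SD, n = 2), with LGR5-negative 1.35 times LGR5-high. The log2 fold change was -0.43 ± 0.0914 (SE; edgeR, adjusted p = 0.0126), at -0.48 in pig 88R and -0.37 in pig 95R. COL4A5 lost this call without LGR5-high 88R (adjusted p = 0.0510) and without LGR5-high 95R (adjusted p = 0.0858), and also when libraries were scaled by their total counts alone (-0.21, adjusted p = 0.104).

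COL4A6 behaved in the same direction with a smaller difference. It had 3626 and 3490 counts (105 and 106 CPM) in LGR5-high and 3994 and 3765 counts (140 and 125 CPM) in LGR5-negative libraries. Mean levels were 106 ± 0.118 and 132 ± 11.0 CPM (SD, n = 2), a ratio of 1.25 in favour of LGR5-negative cells. The log2 fold change was -0.33 ± 0.0879 (SE; edgeR, adjusted p = 0.0282), at -0.41 and -0.24 in the pigs. COL4A6 lost the call without LGR5-high 88R (adjusted p = 0.109), without LGR5-high 95R (adjusted p = 0.126) and without LGR5-negative 88R (adjusted p = 0.130), and with total-count scaling (-0.10, adjusted p = 0.364). Scaling by total counts moved the median of all tested genes to 0.24 and upper quartile scaling moved it to 0.11, against 0.02 with TMM. Relative to the median of each scaling, the change of COL4A5 was -0.45 under TMM, total-count and upper quartile scaling, and that of COL4A6 was -0.34 under all of these. A change of scaling shifts all genes by nearly the same amount, so these values had to come out alike. They are no support for the calls.

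Within each library COL4A5 had between 1.39 and 1.54 counts per COL4A6 count. The distance between their profiles was 0.116, at which COL4A6 ranked 206 of 15979 in likeness to COL4A5 and COL4A5 ranked 282 in likeness to COL4A6. In the same annotation they lie side by side without overlap. COL4A1 and COL4A5 behaved differently from each other. There were 1.27 and 1.37 counts of COL4A1 per count of COL4A5 in the LGR5-high libraries and 0.0325 and 0.0646 in the LGR5-negative libraries, ratios within a library that no scaling alters. In likeness to COL4A1, COL4A5 ranked 12204 of 15979.

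COL4A3 and COL4A4, the chains of the glomerular and a few other basement membranes, were near the limit of measurement. COL4A3 had 0 and 4 counts in LGR5-high and 0 and 1 counts in LGR5-negative libraries and was too low to be tested. A count of 0 allows up to 3 counts, or between 0.0872 and 0.105 CPM in these libraries. COL4A4 had 15 and 23 counts in LGR5-high (0.436 and 0.696 CPM) and 3 and 1 in LGR5-negative libraries (0.105 and 0.0331 CPM). It entered the test only through its LGR5-high counts. Pooled over the pigs, 38 counts against 4 gave 8.27 times more in LGR5-high (exact 95% interval 2.98 to 31.9), and within the pigs the ratio was 4.14 (1.17 to 22.3) and 21.0 (3.42 to 867). These intervals, like all others given here, cover counting error only. The fitted log2 fold change of COL4A4 was 2.98 ± 0.674 (SE; edgeR, adjusted p = 0.0157). It lost the call without LGR5-high 88R (adjusted p = 0.0518), without LGR5-high 95R (adjusted p = 0.115) and without LGR5-negative 95R (2.37, adjusted p = 0.0745), and without LGR5-negative 88R the estimate was 3.94. COL4A4 overlaps COL4A3 and RHBDD1 in the annotation. RHBDD1 had 468 and 420 against 431 and 512 counts and was not called, so some COL4A4 counts may belong to it and the COL4A4 values are uncertain.

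The makeup of the type IV collagen counts differed between the populations more than their sum. The 6 chains together had 981 and 1018 CPM in LGR5-high and 381 and 355 CPM in LGR5-negative libraries. COL4A1 and COL4A2 together held 73.5% and 75.1% of the type IV collagen counts in LGR5-high libraries and 6.55% and 11.1% in LGR5-negative libraries. The Wilson 95% intervals reached no further than 73.0% to 75.5% in the former and 6.10% to 11.7% in the latter. COL4A5 and COL4A6 held 26.5% and 24.8% in LGR5-high against 93.4% and 88.9% in LGR5-negative libraries, and COL4A3 with COL4A4 at most 0.0802% anywhere. In CPM, the sum of COL4A1 and COL4A2 went from 24.9 and 39.5 in LGR5-negative to 721 and 764 in LGR5-high, whereas that of COL4A5 and COL4A6 went from 356 and 315 to 260 and 253. Shares of counts depend on transcript length, which was not used here, so they compare libraries and not the abundance of 1 chain with another.

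**Figure D3:**
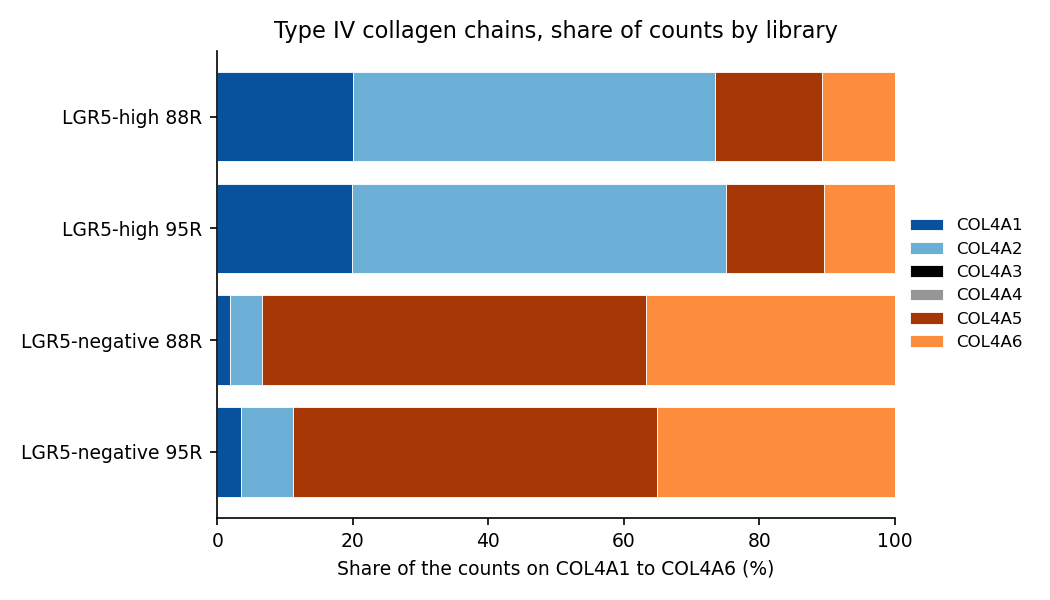
Share of the counts on COL4A1 to COL4A6 that fell on each chain, in percent, 1 bar per library. Blue (COL4A1 and COL4A2) fills 73.5% and 75.1% of the LGR5-high bars and 6.55% and 11.1% of the LGR5-negative bars, with orange and brown (COL4A5 and COL4A6) in nearly all the rest.

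The nidogens parted from each other. NID1 was read 4 and 1 times in LGR5-high and 50 and 63 times in LGR5-negative libraries, or 0.116 and 0.0303 CPM against 1.75 and 2.08 CPM. The LGR5-high values were at the level of the 3-count floor, and NID1 entered the test only through the LGR5-negative libraries. Pooled over the pigs, 5 counts against 113 gave a level 25.9 times higher in LGR5-negative cells (exact 95% interval 10.8 to 81.5). The ratio was 15.1 in pig 88R (5.54 to 57.5) and 68.9 in pig 95R (11.9 to 2763). The fitted log2 fold change of NID1 was -4.63 ± 0.555 (SE; edgeR, adjusted p = 0.00162), which put it at place 11 of the 3508 genes called lower when ordered by size of change, with the reserve that a fold at such counts depends on the prior count. Leaving out LGR5-high 88R moved it to -5.81 and leaving out LGR5-high 95R to -3.99, with the call kept.

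NID2, which can stand in for NID1 as a link in the basement membrane, had 23 and 24 counts in LGR5-high and 12 and 22 in LGR5-negative libraries. The levels were 0.669 and 0.726 CPM against 0.421 and 0.728 CPM and the populations overlapped. It was not called (log2 fold change 0.27 ± 0.423 (SE), edgeR adjusted p = 0.629), and its pooled ratio of 1.20 had an exact 95% interval of 0.758 to 1.93. Without LGR5-negative 88R the log2 fold change was -0.07. That interval covers counting error only, so it does not mark which differences of NID2 could have been detected with 2 pigs. There were 0.174 and 0.0417 NID1 counts per NID2 count in the LGR5-high libraries and 4.17 and 2.86 in the LGR5-negative libraries. The genes nearest to NID2 in profile were LOC106507814, LOC100517502, LOC102158015, TTC29 and LOC110261288.

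The genes whose profile was most like that of NID1 were MPEG1 (distance 0.188), LSP1, LAPTM5, PARVG and MMRN1. MPEG1, which encodes a pore-forming protein of macrophages, had 5 and 1 counts in LGR5-high against 52 and 73 in LGR5-negative libraries. LAPTM5, a lysosomal membrane protein of blood cells, had 37 and 18 against 300 and 464, and MMRN1, which encodes a multimerin of platelets and endothelium, had 11 and 3 against 87 and 125. Some marker lists of other cells held genes that were lower with NID1, beside 22.0% lower and 22.7% higher among all tested genes. Of 6 tested immune markers 5 were lower in LGR5-high and none was higher, with a median log2 fold change of -3.76. Their summed level was 15.3 and 7.62 CPM against 163 and 140 CPM. Of the lower immune genes, PTPRC, CD207, TYROBP and FCER1G, like NID1, entered the test only through the LGR5-negative libraries. So did CDH5, ROBO4 and COL6A3, given below. The T cell gene CD3E had 0 and 0 against 1 and 2 counts. Of 6 tested melanocyte markers 4 were lower and none was higher, with a median of -3.16 (TYRP1, 12 and 17 against 106 and 500 counts). Of 6 tested Schwann cell markers 3 were lower and 2 higher (NGFR 4.74 and PMP2 2.34). Endothelial CDH5 had 1 and 1 counts against 17 and 21, VWF 49 and 32 against 243 and 262, and ROBO4 0 and 0 against 10 and 11, and the fibroblast gene COL6A3 had 5 and 12 against 207 and 180. The endothelial and fibroblast lists were mixed, however. TIE1 (0.99) and EGFL7 (1.06) of endothelium were higher in LGR5-high, as were COL1A2 (3.70), COL1A1 (1.85), FBN1 (1.44), THY1 (1.33) and COL5A1 (1.03) of fibroblasts. Of 9 tested suprabasal keratinocyte markers 8 were lower, with a median of -3.22. Smooth muscle and pericyte markers went the other way, with 6 of 9 tested higher and 1 lower. Of 6 tested dermal papilla markers 3 were higher and none was lower. The part of immune, melanocyte, Schwann cell, endothelial, fibroblast, smooth muscle, pericyte, dermal papilla and suprabasal keratinocyte RNA in the NID1 result was not tested.

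**Figure D4:**
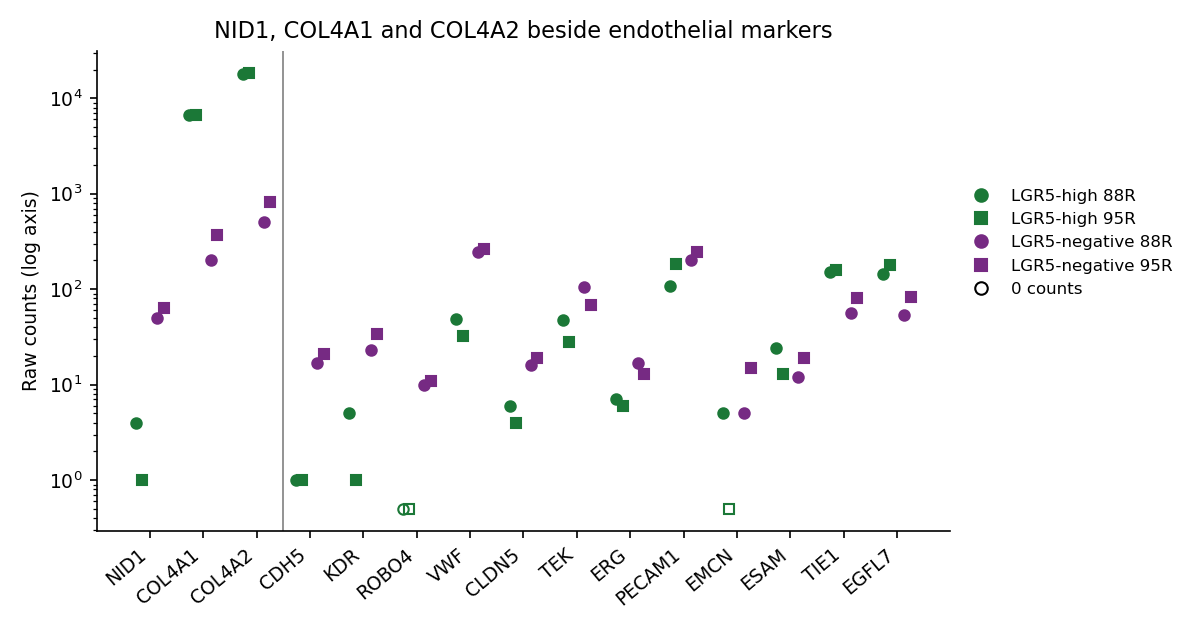
Raw counts (log axis) of NID1, COL4A1 and COL4A2, left of the vertical line, and of 12 endothelial marker genes, right of it, 1 point per library, with open symbols for 0 counts. CDH5, KDR, ROBO4 and VWF are lower in LGR5-high libraries, as NID1 is, whereas TIE1 and EGFL7 are higher.

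HSPG2 encodes perlecan, a large heparan sulfate proteoglycan that binds growth factors in the basement membrane. It had 10442 and 9157 counts in LGR5-high and 5471 and 6139 in LGR5-negative libraries, or 304 and 277 CPM against 192 and 203 CPM. Every LGR5-high value was above every LGR5-negative value, with means of 290 ± 18.8 and 197 ± 7.89 CPM (SD, n = 2) and a ratio of 1.47. The log2 fold change was 0.56 ± 0.0864 (SE; edgeR, adjusted p = 0.00423), at 0.66 in pig 88R and 0.45 in pig 95R. LDLRAD2, which overlaps HSPG2 in the annotation, had at most 3 counts.

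COL18A1 went the other way. It had 21054 and 25630 counts in LGR5-high and 33455 and 33659 in LGR5-negative libraries, or 612 and 775 CPM against 1173 and 1113 CPM. The LGR5-high libraries differed more from each other (694 ± 115 CPM) than the LGR5-negative libraries did (1143 ± 42.5 CPM; SD, n = 2), and the LGR5-negative mean was 1.65 times the LGR5-high mean. The log2 fold change was -0.72 ± 0.130 (SE; edgeR, adjusted p = 0.00712), at -0.94 and -0.52 in the pigs. There were 0.496 and 0.357 HSPG2 counts per COL18A1 count in LGR5-high and 0.164 and 0.182 in LGR5-negative libraries. The genes nearest in profile were METTL4, CMTR2, LOC102164415, ST6GALNAC2 and MLLT1 for HSPG2 and LOC100738906, ZFAND5, VASH1, HMGN4 and SVBP for COL18A1.

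Suprabasal markers were also higher in the LGR5-negative libraries (68177 and 59003 CPM in sum, against 6830 and 6283 CPM in LGR5-high), as were the 4 basal markers named above, beside the higher COL4A5, COL4A6 and COL18A1 levels there. Other basal markers did not go this way. BCAM was higher in LGR5-high (1.04), and KRT5 was not called. KRT15 had 1115 and 2344 CPM in LGR5-high against 715 and 1323 CPM. It was not called (0.76, edgeR adjusted p = 0.187) but passed as higher with the pig as a block (adjusted p = 2.13e-06). Of the 4 lower basal markers, ITGB4 and COL17A1 kept their sign but not their call when either LGR5-high library was left out. ITGB4 was then at -0.33 (without 88R) and -0.45 (without 95R). The part of cell makeup in the COL4A5, COL4A6 and COL18A1 differences was not tested.

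Genes that act with these proteins were counted from 5 lists. Among partner proteins of basement membranes, 6 of 26 tested genes were higher (23.1%) and 9 lower (34.6%), with a median log2 fold change of 0.15. Of all tested genes 22.7% were higher and 22.0% lower. With the pig as a block 12 partner genes were higher and 12 lower, in a fit that called 28.5% of all tested genes higher and 27.2% lower. The largest increases were those of SMOC1, a calcium-binding matrix protein (697 and 976 counts in LGR5-high against 6 and 1; pooled ratio 208, exact 95% interval 101 to 519; fitted log2 fold change 7.66, 9.39 without LGR5-negative 88R and 6.85 without LGR5-negative 95R), and of COL15A1 (log2 fold change 4.54, adjusted p = 9.80e-05). The largest decreases were those of the matrix linker FBLN2 (-2.81) and of ECM1 (-2.50), a secreted glycoprotein that binds perlecan. For laminins, the main partners of nidogen, LAMB2 was higher (1.21, adjusted p = 2.09e-04), LAMA2 and LAMA3 were lower (-1.40 and -0.74), and LAMC1, the chain to which nidogen binds, was not called (0.26, adjusted p = 0.0514) but passed with the pig as a block (adjusted p = 0.0224). COL17A1 (-0.47) and COL7A1 (-1.08), collagens that anchor the epidermis, were lower. COL17A1 lost its call without LGR5-high 88R (adjusted p = 0.0710) and without LGR5-high 95R (adjusted p = 0.0557), and LAMA2 without LGR5-high 88R (adjusted p = 0.0713), where 5 partner genes were lower in place of 9. Total-count scaling gave 11 higher and 6 lower partner genes.

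Among genes for chain folding, export and crosslinking, 8 of 28 tested were higher (28.6%) and 9 lower (32.1%), with a median of -0.07. Of all tested genes 22.7% were higher and 22.0% lower. With total-count scaling 12 genes of the list were higher and 7 lower. LOXL1, a crosslinking oxidase of elastic fibres, had a log2 fold change of 5.82 ± 0.168 (SE; edgeR, adjusted p = 4.09e-05). PXDN encodes peroxidasin, the enzyme that crosslinks type IV collagen networks through sulfilimine bonds. It had 2170 and 2102 counts in LGR5-high and 28 and 44 in LGR5-negative libraries, or 63.1 and 63.6 CPM against 0.982 and 1.46 CPM. Its log2 fold change was 5.69 ± 0.185 (SE; edgeR, adjusted p = 5.15e-05). LOXL4 (-2.26) and the collagen galactosyltransferase gene COLGALT1 (-1.29) had the largest decreases. Of the general collagen machinery, the chaperone gene SERPINH1 (0.90), PLOD2 (2.48) and FKBP10 (3.29) were higher, while the prolyl hydroxylase genes P4HA1 (-0.66), P4HA2 (-0.61) and P4HB (-0.35), PLOD1 (-0.59) and the collagen export gene MIA3 (-0.63) were lower. Without LGR5-high 95R the adjusted p was 0.0831 for P4HA1, 0.0574 for P4HA2 and 0.146 for P4HB, and P4HB was not called without LGR5-high 88R (0.130) or LGR5-negative 88R (0.112) either. In the same fit without LGR5-high 95R, 5 genes of the list were lower in place of 9.

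Among receptors, 14 of 26 tested genes were higher and 6 lower (median 0.43), against the 22.7% and 22.0% of all tested genes. The largest increases were those of the heparan sulfate proteoglycan SDC2 (4.19) and of ITGA1, the alpha chain of a collagen-binding integrin that also binds type IV collagen (111 and 114 counts against 9 and 4; pooled ratio 15.1, exact 95% interval 8.64 to 28.8; fitted log2 fold change 3.89, and 4.61 without LGR5-negative 88R). ITGA2, another collagen-binding alpha chain, was not called (0.43, edgeR adjusted p = 0.106) but passed with the pig as a block (adjusted p = 0.0101). The collagen-binding chains ITGA10 (-0.15) and ITGA11 (0.81) were not called either. ITGB1, the common partner of these chains, was higher (0.35, edgeR adjusted p = 0.0323). Collagen receptor kinase genes were higher too, DDR2 by 2.23 and DDR1 by 0.38 on the log2 scale, and so was the dystroglycan gene DAG1, whose product binds perlecan and laminin (1.26). ITGA7, a laminin receptor chain, (-2.69) and ADGRG6, an adhesion receptor that binds type IV collagen, (-1.98) had the largest decreases. ITGB1 lost its call without LGR5-high 88R (adjusted p = 0.176), LGR5-negative 88R (0.101) or LGR5-negative 95R (0.0642), and DDR1 without LGR5-high 88R (0.0560) or LGR5-high 95R (0.0799).

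Among genes for heparan sulfate synthesis and editing, which act on the sugar chains of perlecan, 9 of 28 tested were higher (32.1%) and 6 lower (21.4%). Their median was 0.04, and of all tested genes 22.7% were higher and 22.0% lower. Without LGR5-high 88R, 4 were higher and 3 lower, and without LGR5-negative 88R 3 were lower. With at least 10 counts asked of every library 4 were higher, HS3ST4, HS3ST5 and HS6ST2 being among those removed. Upper quartile scaling gave 9 higher and 3 lower and total-count scaling 11 and 3. The largest fitted increases were those of the 3-O-sulfotransferase genes HS3ST4 (30 and 60 counts against 0 and 0, at least 13.1-fold higher when each LGR5-negative library is set at the floor of 3 counts) and HS3ST5 (106 and 99 counts against 1 and 3; pooled ratio 44.6, exact 95% interval 17.2 to 165; fitted log2 fold change 5.40, and 6.28 without LGR5-negative 95R). The place of HS3ST4 rests on the prior count, and HS6ST2 of the same list had a pooled ratio of 32.4 (16.9 to 71.5). HS3ST3B1 (-2.22) and HS3ST6 (-1.53), of the same enzyme family, had the largest decreases. Among proteases of basement membranes and their inhibitors, 7 of 34 tested were higher (20.6%) and 15 lower (44.1%), against the same shares of all tested genes (median -0.16). MMP2, a gelatinase that cuts type IV collagen, was higher by 5.81 on the log2 scale (13316 and 10333 counts against 156 and 212), and TIMP2, its inhibitor, by 4.31. MMP28 (-3.56) and the other gelatinase gene MMP9 (-2.61; 5 and 1 counts against 19 and 14; pooled ratio 6.31 in favour of LGR5-negative, exact 95% interval 2.61 to 18.4) had the largest decreases. MMP9 lost its call without LGR5-negative 88R (adjusted p = 0.108) and without LGR5-high 95R (-1.92, adjusted p = 0.147), and was at -4.06 without LGR5-high 88R.

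**Figure D5:**
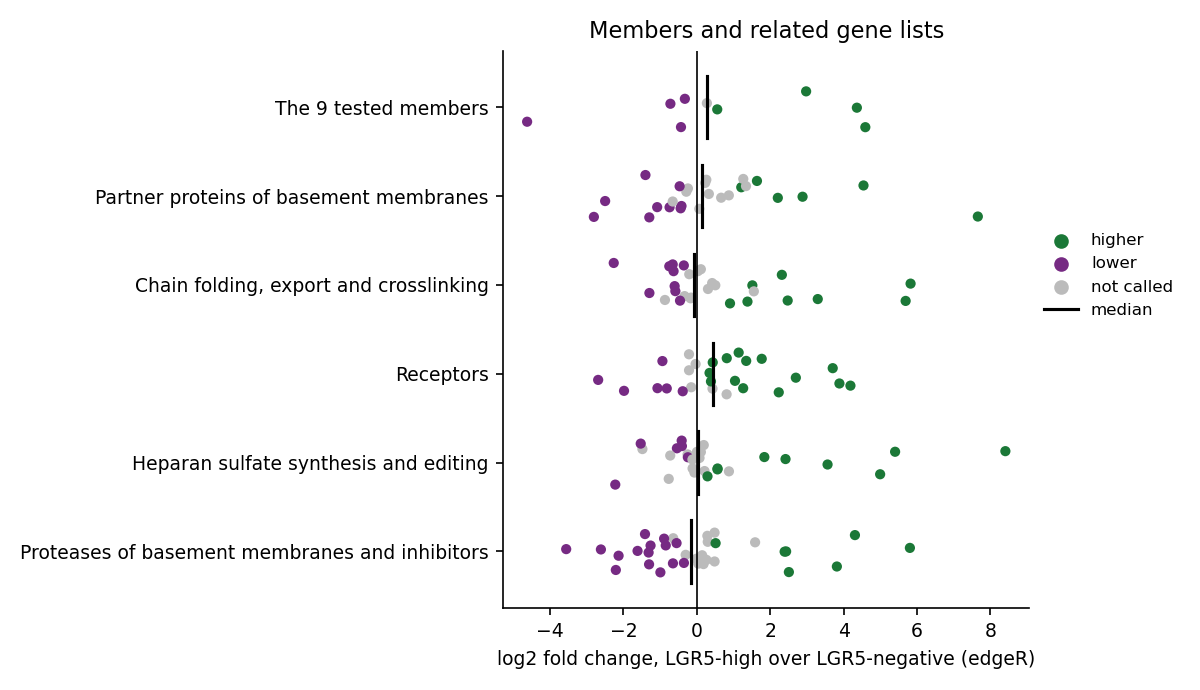
Log2 fold change (edgeR, LGR5-high over LGR5-negative) of each tested gene of the 9 tested basement membrane genes and of 5 related lists, coloured by call, with a black line at each row's median. Medians run from -0.16 to 0.43, and the rightmost point, HS3ST4, has 0 counts in both LGR5-negative libraries, so its position depends on the prior count.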

How the data were processed

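Poly(A) RNA of sorted epidermal cells was sequenced as paired ends by the authors, and the deposited values are raw counts per gene symbol without normalization. The submitters' processing notes name Trimmomatic 0.36, STAR 2.5.2b, and featureCounts from Subread 1.5.2. The genome build, annotation and strand setting are not given in the sources used here. An entry without a name (0.360% to 0.626% of counts) was left out.

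Genes were filtered with filterByExpr (minimum count 10, minimum total 15), scaled by TMM and fitted with edgeR 4.0.16 in R 4.3.3 (quasi-likelihood test, population as the only term). A gene with few counts in 1 population could enter the test through the other alone. The direction of such a call was largely set by the filter. SMOC1, ITGA1 and MMP9 were such genes, beside those named above. P-values were adjusted by Benjamini-Hochberg over 15980 genes, with a threshold of 0.05. This replaced the study's Student's t-test, which was run as an alternative on log2(CPM + 1). The SE of a log2 fold change is its size divided by the square root of F. Within-pig log2 ratios used a prior count of 2. Libraries of the same pig share the animal number in the labels, and deviations from the population means correlated within pigs (r = 0.370), so fits with the pig as a block were added. Other alternatives were DESeq2 1.42.0, limma-voom 3.58.1, other scalings and filters, and leaving out each library.

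All 10 members and the 5 lists were chosen with earlier results of these data known. Genes named from each list are the 2 with the largest increase and the 2 with the largest decrease among those called, plus genes that a statement turns on; of the latter, the laminins, epidermal anchoring collagens, folding enzymes, other receptors and marker genes were chosen after their values were seen. Profile neighbours are the 5 genes with the smallest Euclidean distance of centred log2 CPM (prior count 2). RefSeq (Sscrofa11.1) served only for names and for which genes overlap, and all 10 symbols matched. Levels of different genes were not compared, since lengths were not used. KRT14 was not analysed here.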

Additional observations from a re-analysis of the deposited data

How the results depend on the processing

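Each value was recomputed under 14 alternatives (13 for COL4A4 and NID1, which a filter of 10 counts in every library removes). COL4A1, COL4A2, COL18A1, NID1 and HSPG2 kept their direction and call under all of these except Student's t-test, which called 0 of the 9 tested genes after adjustment, so that the count of higher genes went from 4 to 0 and that of lower genes from 4 to 0. By that test 5 of the 9 passed an unadjusted p under 0.05, and 1046 of all tested genes passed after adjustment. With total-count scaling 2 genes were lower, COL4A5 and COL4A6 being lost, and when 1 library was left out the count of lower genes was between 2 and 4, with 2 without LGR5-high 88R and without LGR5-high 95R. COL4A4 lost its call under 6 alternatives, DESeq2 (adjusted p = 0.0534) and DESeq2 with the pig as a block (0.111) among them. COL4A6 lost it under 6, upper quartile scaling (-0.23, adjusted p = 0.0795) among them, and COL4A5 under 4. NID2 changed sign without LGR5-negative 88R (-0.0682), and its leave-out values ran from -0.0682 to 0.71.

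With the replicate block, which pairs the libraries of a pig, all 9 tested genes had the call given above, for example COL4A4 with an adjusted p of 0.00251 and COL4A6 with 0.00610, and 12 partner genes were higher in place of 6. Of 140 recomputed counts over the 5 lists, 120 stayed within 1.5 times the value given and 20 moved further, 10 of them under the t-test. An alternative with counts per transcript length was not run, since lengths were not used here. With 2 pigs per population the p-values rest on the spread shared across genes. At this depth COL4A3 could not be compared, and NID1, NID2 and COL4A4 rest on fewer than 100 counts in each library.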
